A study of Mus musculus with 38 samples.

Results

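The genes described here were the organic ion transporters of the Slc22a and Slco families and the ATP-binding cassette (ABC) transporters of the Abcb and Abcc families. They were taken by name, as every gene whose symbol joined one of these family names to a digit. This gave 61 genes (26 Slc22a, 15 Slco, 10 Abcb and 10 Abcc) of 21644 in each of 2 tables of RPKM, read counts scaled to gene length and to library depth. Total liver RNA had been sequenced from 2 mouse systems in which Myc, YAP or both can be switched on. In R26 mice the R26-rtTA transactivator, expressed from the Rosa26 locus and so not restricted to hepatocytes, drove the transgenes for 2 days. The 17 R26 libraries were 4 of WT, 4 of tet-Myc, 6 of tet-YAP and 3 of tet-Myc/YAP liver. In LAP mice the LAP-tTA transactivator, under a promoter active in hepatocytes, drove them for 4 weeks. The 21 LAP libraries were 3 of WT, 3 of tet-Myc, 4 of tet-YAP and 3 of tet-Myc/YAP liver and 8 of tumour nodules from tet-YAP liver, whose time of induction the labels do not give. WT livers carried the transactivator without a transgene, and tet-YAP encodes an activated YAP mutant. The age of the animals is not given in the sources used here. Neither is whether each library, or each nodule, came from its own animal, so the p-values may reflect technical spread alone.

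Hepatocytes take organic ions, drugs and bile acids from the blood across their sinusoidal membrane and secrete them, often after conjugation, into the bile canaliculus. Slco proteins (OATPs) carry organic anions inwards, while Slc22a proteins comprise the organic cation, organic anion and carnitine transporters. Abcb and Abcc proteins use ATP: some pump bile salts, phospholipids or conjugates into bile, some return them to the blood, and others act in mitochondria or form subunits of potassium channels.

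Library depth, inferred from the steps that single reads leave in the RPKM values, was 23680000 to 56800000 reads, so that 1 RPKM stood for 23.7 to 56.8 reads per kilobase. The top of the scale was compressed. Whatever the depth, the gene ranked 6 from the top had 1447 to 1721 reads per kilobase, which is 28.7 to 67.3 RPKM, and this limit was lower in deeper libraries. It was at 34.3 and 33.8 RPKM in R26 tet-Myc/YAP libraries 1 and 2, at 55.7 in library 3, at 52.9 to 62.3 in R26 WT, at 42.96 to 67.3 in LAP WT and at 28.7 to 38.6 in the tumours. Hence the most abundant transporters of WT liver lay within this compressed range. The sexes were mixed, as judged by Xist and Y-linked transcripts. A female pattern was seen in 17 of 38 libraries: among R26 livers tet-Myc 2 and 3 and tet-Myc/YAP 3, among LAP livers tet-Myc/YAP 1 and 2, WT 2 and 3, tet-YAP 2 and tet-Myc 3, and all 8 tumours. Library numbers follow the order of the table's columns and serve only as names. The variance between partners was 1.025 to 1.489 times that of counting alone in 6 pairs of R26 libraries, against 1.89 to 6.37 in the other 24. The close pairs were libraries 1 and 4 and libraries 2 and 3 of WT, 1 and 4, 2 and 5, and 3 and 6 of tet-YAP, and 1 and 2 of tet-Myc/YAP. They were kept as separate libraries, and calls lost on averaging them are named below. In the 43 pairs of LAP libraries the ratio was 1.653 to 21.29. The lowest was that of LAP tet-YAP libraries 3 and 4, below the other R26 pairs. Over all genes this pair had 2.075, inside the range of 1.599 to 3.914 of the close R26 pairs. No LAP pair was averaged, so the effect of averaging on the LAP tet-YAP calls was not tested. Of those 11 calls, 9 were kept without library 3 and 8 without library 4.

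The transporters of the hepatocyte surface led the set in WT liver. Slco1b2 (OATP1B2, a main hepatic uptake carrier for drugs and bile acids) was first in both tables, at 35.6 ± 8.06 RPKM in R26 (SD, n = 4) and 33.4 ± 5.04 in LAP (SD, n = 3). Slco1a1 was next, at 31.5 ± 4.36 and 29.9 ± 7.25 RPKM. The bile salt pump Abcb11 had 30.3 ± 4.87 and 25.8 ± 4.28 RPKM, and the conjugate pump Abcc2 23.4 ± 2.19 and 25.98 ± 3.64. Among these genes, neighbours in the order of means differed by less than the larger of their SDs, except Abcb11 and Abcc2 in R26. At the other end, 31 of the 61 genes in R26 and 25 in LAP did not reach 1 RPKM in 3 libraries and were not tested, and 17 and 11 of these stayed under 0.1 RPKM in every library. A gene was called when the limma adjusted p was under 0.05 and the log2 difference of RPKM + 0.5 was at least 0.5 in size. Of the 36 genes tested in either system, 34 were called in at least 1 of 11 comparisons, the exceptions being Slco2a1, a prostaglandin carrier, and Abcc10. The share of all genes called in at least 1 comparison was not computed, so this count has no background beside it. Tumours against WT alone called 52.8% of all genes. Those 36 passed the filter partly through the groups where they were high, so the counts below describe the tested genes alone.

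No transporter was called with Myc alone, and most of those tested were called in the tumours. With tet-Myc there were 0 calls of 30 tested in R26, where the calls among all genes were 2.17% higher, 2.7% lower and 4.87% in either direction, and 0 of 36 in LAP (0.0159% higher, 0.00794% lower and 0.0238% in either direction). At an unadjusted p under 0.05 there were 8 transporters in R26 and 6 in LAP. In R26 tet-Myc, Slco2a1 (−0.43, adjusted p = 0.0044) and Slc22a15 (−0.34, adjusted p = 0.042) passed the adjusted p but not the size of 0.5. Leaving out R26 tet-Myc library 1, of male pattern, gave 5 adjusted calls (Slco1a4, Abcb1a, Slc22a26, Slc22a27 and Slc22a29), all higher. Leaving out library 4, also male, gave 4, of which Slc22a26, Slc22a27 and Slc22a29 were higher and Slc22a28 lower. After 2 days of YAP, 2 transporters were called higher and 6 lower, beside background calls of 2% higher, 4.19% lower and 6.19% in either direction. With Myc and YAP together for 2 days the numbers were 4 and 12, and the latter, 40% of those tested, stood close to the background of 4.61% higher, 37.6% lower and 42.2% in either direction. After 4 weeks YAP gave 4 higher and 7 lower (11.5% higher, 15.3% lower and 26.8% in either direction), and Myc with YAP 4 higher and 14 lower (22.5% higher, 14% lower and 36.5% in either direction).

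In the tumours 6 transporters were higher and 23 lower than in WT, and the lower share of 63.9% compares with background calls of 21.5% higher, 31.3% lower and 52.8% in either direction. The median log2 difference was −0.996 over the tested transporters and −0.14 over all genes. Against tet-YAP liver the tumours had 4 higher and 17 lower (9.89% higher, 15.5% lower and 25.4% in either direction), and against tet-Myc/YAP liver 5 higher and 11 lower (6.57% higher, 26.4% lower and 33% in either direction). An interaction of Myc and YAP, meaning that the joint effect differed from the sum of the single ones on the log scale, was called for 2 transporters in R26 (background 4.46% higher, 21.1% lower and 25.6% in either direction) and 4 in LAP (background 12% higher, 3.72% lower and 15.7% in either direction). Comparisons within a system share their WT, tumour or tet-YAP libraries with each other.

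**Figure D1:**
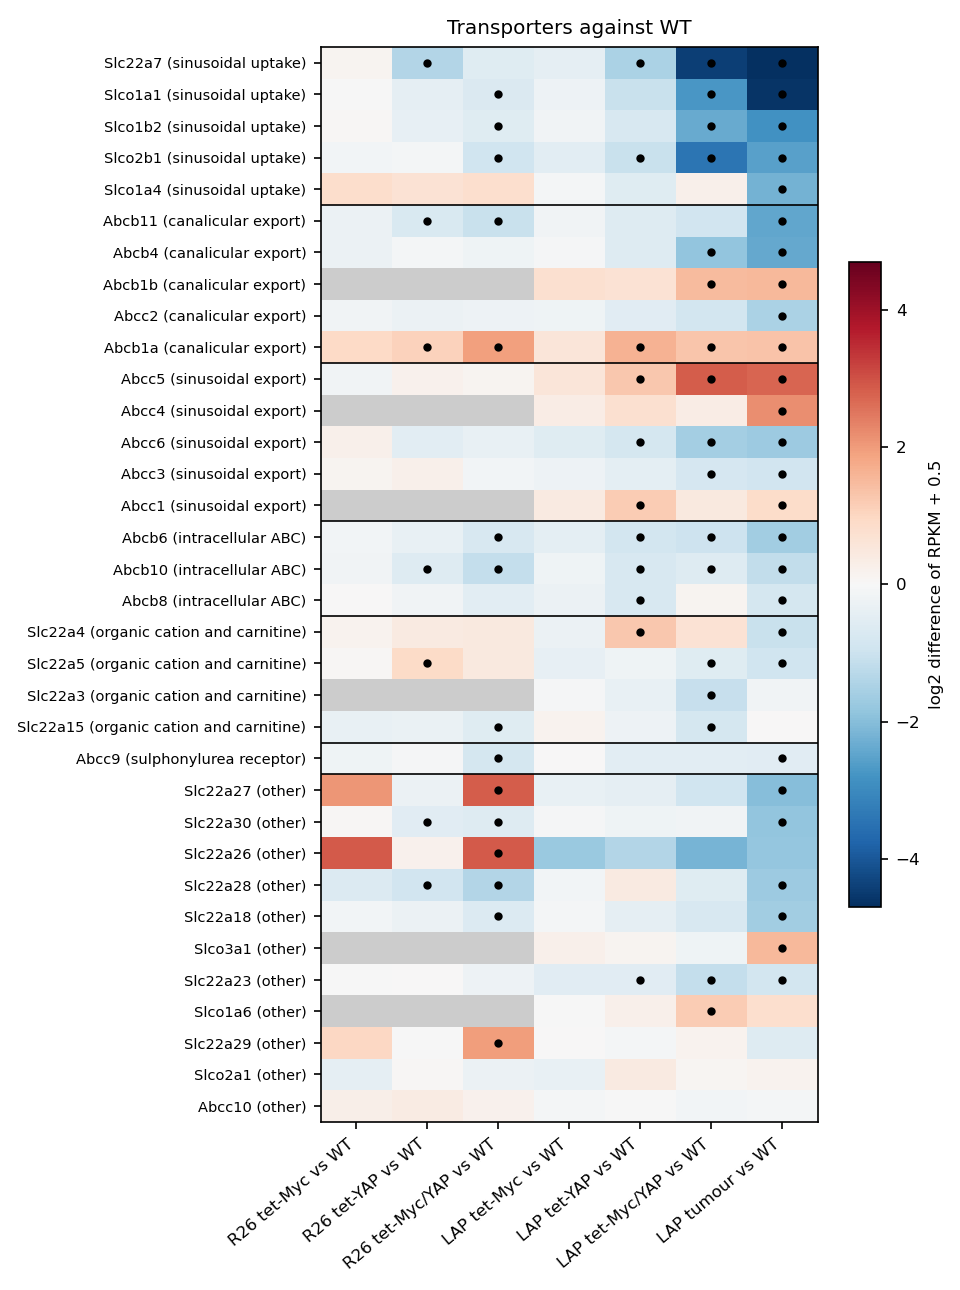
Log2 difference of RPKM + 0.5 for 34 of the 36 tested transporters, in rows ordered by role, with a column for each of 7 comparisons with WT; colour gives the difference, dots mark calls (limma, adjusted p under 0.05 and at least 0.5 in size) and grey cells were not tested. The sinusoidal uptake carriers plotted are lower in the tumours, down to −4.68 for Slc22a7, while Abcc5, Abcc4, Abcb1b and Abcb1a are higher.

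The scale on which these calls rest shifted between groups. The median log2 difference of all genes was −0.39 in R26 tet-Myc/YAP, 0.11 in LAP tet-Myc/YAP, −0.14 in tumours against WT and −0.29 in tumours against tet-Myc/YAP. Rescaling by median ratios brought it to −0.04, −0.02, −0.04 and −0.05. With that rescaling the R26 tet-Myc/YAP split of 4 higher and 12 lower became 8 and 5, and with quantile normalization 6 and 3. In R26 tet-YAP the split of 2 and 6 became 2 and 3, and 2 and 2. In LAP tet-YAP 4 and 7 became 4 and 6, and 4 and 4. Tumours against tet-Myc/YAP went from 5 and 11 to 6 and 6, or 6 and 8, whereas tumours against WT had 7 and 22, or 5 and 18. Averaging the close pairs removed all 8 transporter calls in R26 tet-YAP, with adjusted p of 0.074 to 0.31, so the calls for that group rest on counting both partners of each pair. The sizes of the differences moved little, for example to −1.37 from −1.39 for Slc22a7 and to −0.73 from −0.72 for Abcb11.

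The carriers that bring solutes into the hepatocyte included the genes with the 5 largest decreases in tumours. All 6 sinusoidal uptake genes were lower in the LAP tumours, with a median log2 difference of −3.44, and 5 of the 6 were lower after 4 weeks of Myc and YAP (median −2.72). In tet-YAP liver 2 of them were called lower in each system, and in R26 tet-Myc/YAP 4 were. Among all genes 31.3% were called lower in tumours, 14% with LAP tet-Myc/YAP and 15.3% with LAP tet-YAP. In R26 the share was 4.19% with tet-YAP and 37.6% with tet-Myc/YAP. In that last group the median was −0.39 for all genes and −0.62 for the uptake genes. Slco1a1, an OATP that carries bile acids and steroid conjugates, was at 37.9, 28.1 and 23.7 RPKM in LAP WT and at 28.5, 22.9 and 23.2 with tet-Myc. It was at 18.6, 8.12, 16.2 and 15.4 RPKM with tet-YAP, and at 1.96, 2.27 and 12.5 with tet-Myc/YAP. The tumours ranged from 0.0651 to 3.44 RPKM with a median of 0.782. Every tumour thus lay below every WT, tet-Myc and tet-YAP liver, and nodule 8 alone exceeded tet-Myc/YAP libraries 1 and 2. The mean of the tumours, 0.964 ± 1.08 RPKM (SD, n = 8), was 31.03-fold under WT, a log2 difference of −4.62 ± 0.49 (SE, adjusted p = 2.3e-07). With tet-Myc/YAP the difference was −2.74 ± 0.59 (adjusted p = 0.0011) and with tet-YAP −1.05 (adjusted p = 0.15), which did not pass. Slco1a1 was called lower in tet-YAP with sex pattern as a covariate (−1.46, adjusted p = 0.038) and with the compared groups alone (adjusted p = 0.014).

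Slco1b2 had 38.8, 32.8 and 28.8 RPKM in LAP WT, 22.95, 19.1, 18.1 and 17.95 with tet-YAP and 2.94, 4.36 and 16.2 with tet-Myc/YAP. In the tumours it lay between 0.732 and 9.94 RPKM, lowest in nodules 6 and 5, without overlap with WT or tet-YAP. The differences were −2.86 ± 0.51 for tumours (adjusted p = 7.1e-05) and −2.37 ± 0.61 for tet-Myc/YAP (adjusted p = 0.0044). After 2 days of both factors it was called lower at −0.58 (adjusted p = 0.022), but libraries 1 and 2 (19.9 and 19.5 RPKM) carried this. Library 3, at 32.6 RPKM, was inside the WT range of 28.5 to 46.4. Without libraries 1 and 2 the difference was −0.10, from library 3 alone, and after quantile normalization of all libraries it was 0.02 (adjusted p = 0.87). The call was also lost with pairs averaged and without tet-Myc/YAP 1 or 2, or without WT 4 (adjusted p of 0.073 to 0.11).

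Slco1a4, a relative of Slco1a1 that lies next to it on the chromosome, was not called with Myc and YAP together (0.23, adjusted p = 0.83). Its LAP tet-Myc/YAP libraries were at 14.6, 17.7 and 15.2 RPKM beside 10.1, 14.1 and 16.8 in WT and 10.5, 13.5, 6.55 and 6.52 with tet-YAP. In the tumours it was at 0.143 to 12.1 RPKM (median 2.92), with nodule 3 inside the WT range. The log2 difference of tumours was −2.23 from WT (adjusted p = 0.0044) and −2.46 from tet-Myc/YAP liver (adjusted p = 0.0047). In R26 livers Slco1a4 was at 5.32 to 8.24 RPKM in WT, 2.99, 16.4, 24.6 and 18.1 with tet-Myc, 8.15 to 13.9 with tet-YAP and 12.1, 10.99 and 13.1 with tet-Myc/YAP, and no group was called. Fits limited to the groups compared called Slco1a4 higher with tet-YAP (0.69, adjusted p = 0.0075) and with tet-Myc/YAP (0.78, adjusted p = 0.0025). The latter was also called after rescaling (1.17, adjusted p = 0.048) and after quantile normalization (1.28, adjusted p = 0.030), and tet-Myc was called without its library 1 (1.45, adjusted p = 0.00028). In R26, Slco1a4 was at 13.1 to 24.6 RPKM in female-pattern and 2.99 to 18.1 in male-pattern libraries. With sex pattern as a covariate no R26 group was called, at 0.38 for tet-Myc (adjusted p = 0.59), 0.69 for tet-YAP (adjusted p = 0.14) and 0.49 for tet-Myc/YAP (adjusted p = 0.32).

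**Figure D2:**
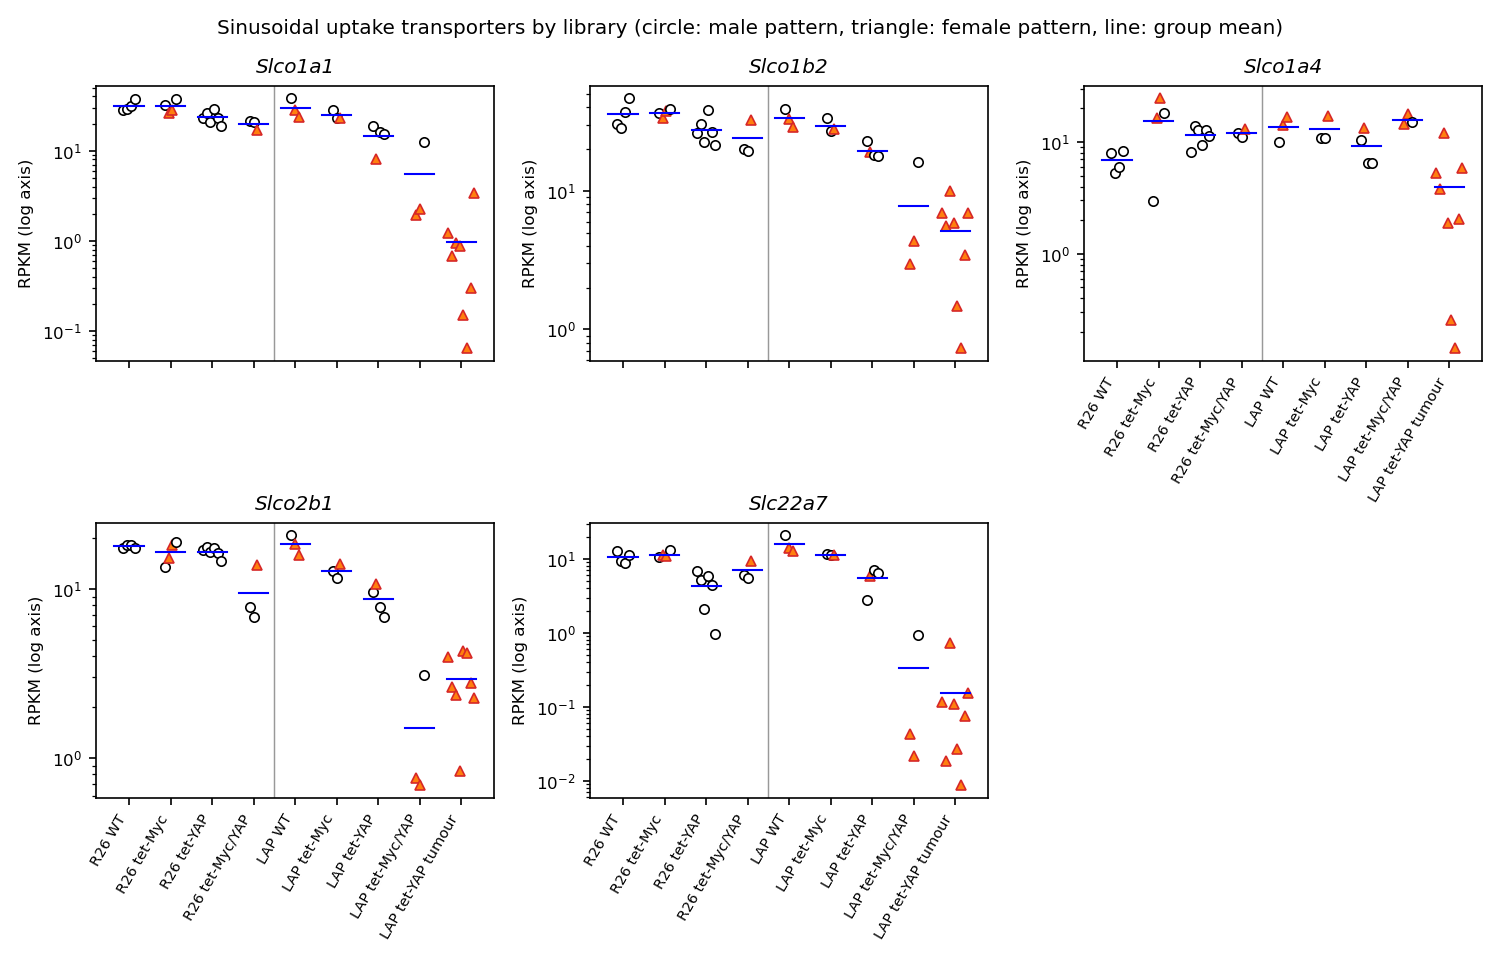
RPKM on a log axis for 5 sinusoidal uptake carriers in all 38 libraries, by group; circles are libraries with a male pattern, triangles those with a female pattern and lines group means. In the LAP groups of each panel the tumours reach down to 0.0651 RPKM for Slco1a1 and 0.00877 for Slc22a7, and Slco1a4 stays near the WT level with tet-Myc/YAP.

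The 3 Slco genes, which lie in the same region of a chromosome, are shown with the 250 bases before their annotated start, from RefSeq on build GRCm38.p6, because the other two were called lower with LAP tet-Myc/YAP and Slco1a4 was not. A window was found for 49 of the 61 genes. Some genes had more than 1, and for each gene shown the first listed is given. Capitals mark matches, on either strand, to GTTAAT, a half-site of the hepatocyte factor HNF1, to GGAATG, the element bound by the YAP partner TEAD, or to CACGTG, the E-box bound by Myc.
Slco1b2: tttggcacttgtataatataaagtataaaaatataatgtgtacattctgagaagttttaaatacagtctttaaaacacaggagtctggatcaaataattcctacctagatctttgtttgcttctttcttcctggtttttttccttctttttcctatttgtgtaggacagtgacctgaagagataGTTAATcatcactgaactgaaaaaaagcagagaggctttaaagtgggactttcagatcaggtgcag
Slco1a1: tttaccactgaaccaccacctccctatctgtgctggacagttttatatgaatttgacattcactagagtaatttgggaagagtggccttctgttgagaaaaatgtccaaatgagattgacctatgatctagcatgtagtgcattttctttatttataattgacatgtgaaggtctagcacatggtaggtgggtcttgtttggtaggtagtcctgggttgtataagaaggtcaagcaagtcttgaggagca
Slco1a4: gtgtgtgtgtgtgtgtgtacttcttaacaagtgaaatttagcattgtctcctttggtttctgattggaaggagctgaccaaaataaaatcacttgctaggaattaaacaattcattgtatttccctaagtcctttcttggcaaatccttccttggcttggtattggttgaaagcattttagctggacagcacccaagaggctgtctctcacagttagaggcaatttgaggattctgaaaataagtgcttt
The windows are chr6:141629268-141629517 on the plus strand, chr6:141946963-141947212 on the minus strand and chr6:141856221-141856470 on the minus strand. Slco1b2 held 1 GTTAAT and the other two windows none of the 3 motifs. Among all 32851 windows of this length 6.43% held GTTAAT, 12.6% GGAATG and 6.02% CACGTG. The 49 transporter genes had 56 windows, of which 4 held GTTAAT, 14 GGAATG and 3 CACGTG. Counted by gene, GTTAAT was in 4, GGAATG in 13 and CACGTG in 3 (Abcc4, Slc22a4 and Slc22a16).

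Slc22a7 (OAT2, an uptake carrier for organic anions) had the lowest mean level of the 6 in tumours. LAP WT libraries were at 20.7, 14.1 and 12.8 RPKM, tet-Myc at 11.5, 11.4 and 11.2, tet-YAP at 2.76, 5.96, 7.05 and 6.39 and tet-Myc/YAP at 0.0425, 0.0218 and 0.929. The 8 tumours ran from 0.00877 to 0.723 RPKM with a mean of 0.154 ± 0.236, 103-fold under WT, and nodule 3 stood above the others. Neither tet-YAP nor tet-Myc/YAP overlapped with WT. Differences from WT were −1.48 ± 0.34 for tet-YAP (adjusted p = 0.0041), −4.44 ± 0.36 for tet-Myc/YAP (adjusted p = 4.0e-08) and −4.68 ± 0.30 for tumours (adjusted p = 5.2e-10). At 2 days tet-YAP libraries had 6.84, 5.15, 2.14, 5.93, 4.48 and 0.975 RPKM against 8.75 to 12.7 in WT, and the close partners 3 and 6 were the lowest. The difference was −1.39 ± 0.34 (adjusted p = 0.011, and 0.15 with pairs averaged). With R26 tet-Myc/YAP it was at 6.14, 5.54 and 9.43 RPKM, not called at −0.57.

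Slco2b1, which carries steroid sulphates and statins, was at 20.7, 18.3 and 15.9 RPKM in LAP WT, 12.7, 11.6 and 13.97 with tet-Myc and 9.61, 10.7, 7.84 and 6.79 with tet-YAP. It was at 0.758, 0.692 and 3.08 RPKM with tet-Myc/YAP and 0.840 to 4.32 in the tumours (median 2.70). Libraries 1 and 2 of tet-Myc/YAP were thus below every tumour, and tumours were called higher than tet-Myc/YAP liver at 0.87 (adjusted p = 0.037). That call was lost without tet-Myc/YAP 1 or 2, or without nodule 1, 5, 6 or 7 (adjusted p of 0.051 to 0.21). The log2 difference from WT was −3.42 ± 0.39 for tet-Myc/YAP (adjusted p = 2.0e-06), −2.55 ± 0.33 for tumours (adjusted p = 2.1e-06) and −1.04 ± 0.37 for tet-YAP (adjusted p = 0.038). The last was lost without WT library 1, 2 or 3 or tet-YAP library 3 or 4 (adjusted p of 0.14, 0.089, 0.054, 0.084 and 0.10). Slco2b1 shares exons with gene models on the opposite strand in GENCODE, and the counting is not stated to use strand. Overlaps with other gene models were found for 12 of the 61 genes, among them Abcb10, Abcb11 and Abcc9 on the opposite strand and Abcb6 on the same strand.

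The interaction of Myc and YAP in LAP was −2.52 ± 0.50 for Slc22a7 (adjusted p = 0.0071) and −1.88 ± 0.54 for Slco2b1 (adjusted p = 0.030), so that both were lower with the 2 factors together than the single effects add up to. For Slco2b1 the call was lost with sex pattern as a covariate (adjusted p = 0.060) and when any one of 7 libraries was left out, namely without tet-Myc/YAP 1 or 2, or without WT 1 or 2, or without tet-Myc 1 or 3, or without tet-YAP 2 (adjusted p of 0.053 to 0.11). For Slc22a7 it held without each library in turn. In R26 the term for Slco2b1 was −0.71 ± 0.22 (adjusted p = 0.019). There tet-Myc/YAP libraries 1 and 2 had 7.81 and 6.82 RPKM, library 3 had 13.9 and all other R26 livers 13.6 to 18.9. This term was not called with pairs averaged (adjusted p = 0.24), after rescaling (adjusted p = 0.13) or without library 1 or 2 (adjusted p of 0.062 and 0.078).

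Sex pattern moved with the tumour comparisons, since all tumours were of the female pattern while LAP WT held 1 male library. Among female-pattern libraries alone, an analysis chosen after seeing the data, the tumours kept the lower calls for Slco1a1, Slco1b2, Slco1a4, Slco2b1 and Slc22a7, and 23 of 29 transporter calls in all. With 1 female tet-YAP library, assumed to vary like the other groups, 0 of the 11 tet-YAP calls and 6 of the 21 calls of tumours against tet-YAP were kept. Without LAP WT library 1, the male one, 5 transporters were called in tet-YAP in place of 11.

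The 3 main carriers that secrete into bile were all called lower in the tumours, beside 31.3% of all genes. Abcb11, the bile salt export pump, was at 29.9, 26.1 and 21.3 RPKM in LAP WT, 18.8, 16.6, 15.98 and 14.8 with tet-YAP, 13.3, 12.3 and 15.5 with tet-Myc/YAP and 1.90 to 11.2 (median 4.02) in tumours. None of these groups overlapped with WT in RPKM. The limit of the scale was at 42.96 to 67.3 RPKM in WT and at 32.9 to 45.8 with tet-YAP. It was at 34.9 to 47.2 RPKM with tet-Myc/YAP and at 28.7 to 38.6 in tumours. Its part in these levels, and in those of Abcb4 and Abcc2 below, was not tested. The difference in tumours was −2.44 ± 0.32 (adjusted p = 2.5e-06), whereas −0.62 for YAP and −0.88 for both factors were not called. Fits limited to the groups compared called both (adjusted p = 0.016 and 0.0055). In R26 livers Abcb11 was at 25.3 to 35.9 RPKM in WT and 22.2 to 27.3 with tet-Myc. It was at 14.95 to 22.7 with tet-YAP (−0.72 ± 0.12, adjusted p = 0.0011, and 0.074 with pairs averaged) and at 13.4, 12.7 and 17.3 with tet-Myc/YAP (−1.04 ± 0.14, adjusted p = 1.6e-05). Both groups lay below WT, and the latter difference was −0.65 beyond the shift of all genes. It was not called after quantile normalization (−0.42, adjusted p = 0.0015).

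Abcb4, the phospholipid floppase of the canalicular membrane, had 19.1, 19.8 and 14.8 RPKM in LAP WT and 3.99, 2.51 and 9.20 with tet-Myc/YAP. The tumours were at 1.29 to 5.33 RPKM, and the log2 differences were −1.85 ± 0.41 for tet-Myc/YAP (adjusted p = 0.0014) and −2.42 ± 0.34 for tumours (adjusted p = 5.8e-06). Tet-YAP libraries, at 9.84 to 14.5 RPKM, all lay below WT but were not called at −0.60. In R26 livers no group was called for Abcb4. Abcc2 (MRP2, which secretes conjugates into bile) was called in the tumours and in no other comparison with WT. It was at 1.59 to 14.99 RPKM there against 29.8, 25.5 and 22.6 in WT (−1.47 ± 0.39, adjusted p = 0.0030), with nodule 5 at the lowest value and nodule 6 next at 7.21. That call was lost among female-pattern libraries (adjusted p = 0.061) and after quantile normalization (adjusted p = 0.16).

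**Figure D3:**
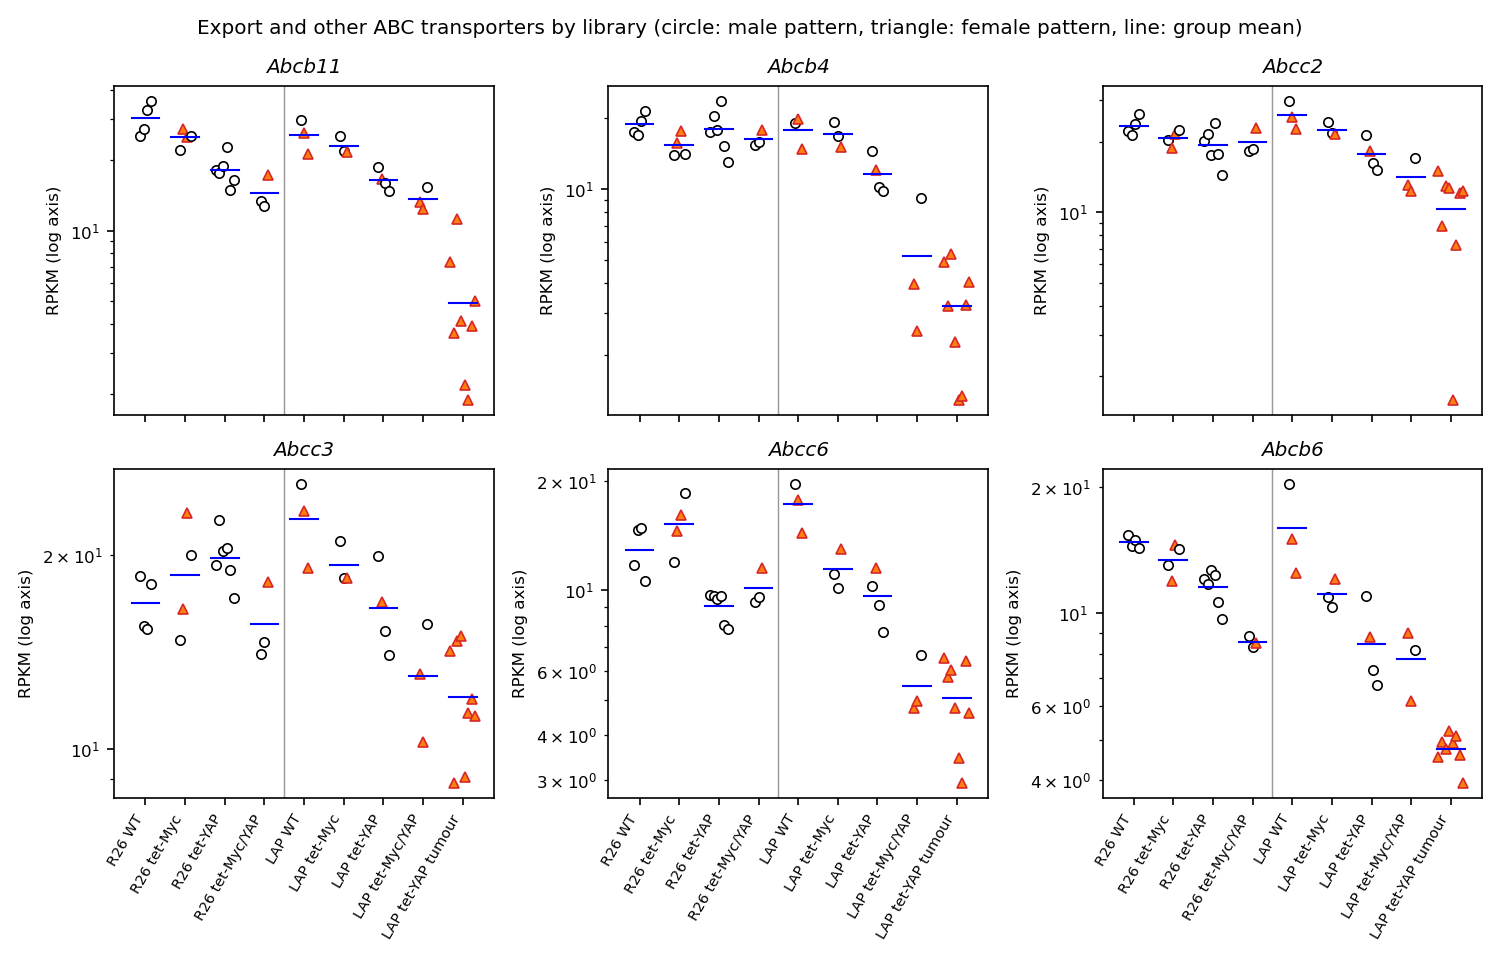
RPKM on a log axis for 6 ABC transporters that were lower in tumours, in all 38 libraries by group; circles are libraries with a male pattern, triangles those with a female pattern and lines group means. Tumours lie under LAP WT in RPKM for each gene, for example at 1.90 to 11.2 for Abcb11 against 21.3 to 29.9. The limit of the scale was also lower in tumours, at 28.7 to 38.6 RPKM against 42.96 to 67.3, and its part was not tested.

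Both P-glycoprotein genes were called higher in LAP tet-Myc/YAP liver and in the tumours. Abcb1a, a multidrug efflux pump, was at 0.664, 1.48 and 1.72 RPKM in LAP WT, 1.54, 2.70 and 2.12 with tet-Myc, 5.61, 4.91, 4.66 and 4.34 with tet-YAP and 3.78, 3.88 and 3.69 with tet-Myc/YAP. The tumours were at 2.56 to 6.16 RPKM (median 3.80). All 3 groups with YAP lay above WT, with log2 differences of 1.64 ± 0.23, 1.31 ± 0.25 and 1.33 ± 0.20 and adjusted p of 7.6e-05, 0.00035 and 1.6e-05. The 2-day livers moved in the same direction from a lower level, with 0.182 to 0.230 RPKM in WT, 0.791 to 1.36 with tet-YAP and 2.00, 1.67 and 2.98 with tet-Myc/YAP. There the differences were 1.08 ± 0.30 (adjusted p = 0.022, and 0.31 with pairs averaged) and 1.92 ± 0.36 (adjusted p = 0.00022). The first was also lost without WT 3 or 4 (adjusted p of 0.051 to 0.054). The R26 tet-Myc libraries were at 0.181, 0.914, 2.91 and 0.484 RPKM, with the female-pattern ones highest, and were not called (0.93). All R26 WT livers were of the male pattern, and of the LAP WT livers library 1, the male one, had the lowest Abcb1a level at 0.664 RPKM.

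Abcb1b, its neighbour and close paralogue, was at 0.176 to 0.302 RPKM in LAP WT, 0.498 to 0.843 with tet-YAP, 1.14, 1.60 and 2.10 with tet-Myc/YAP and 0.879 to 3.34 in tumours. The last 2 groups were called higher by 1.47 ± 0.39 (adjusted p = 0.0051) and 1.51 ± 0.32 (adjusted p = 0.00043). The tet-Myc/YAP call was lost after quantile normalization (adjusted p = 0.056) and among female-pattern libraries (adjusted p = 0.069). Abcb1b was not tested in R26, where it was at 0.608 to 0.645 RPKM in WT, 0.230 to 0.825 with tet-Myc and 0.357 to 0.635 with tet-YAP. There tet-Myc/YAP library 1 stood at 2.85 RPKM, its close partner, library 2, at 0.537 and library 3 at 0.206. Reads shared between the paralogues could have been assigned to either one, and both genes overlap a gene model on the opposite strand.

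Abcb1a is shown with the 250 bases before 1 annotated start, since it was called higher in all 5 groups with YAP, and Abcc5 because it had the largest increase in the tumours.
Abcb1a: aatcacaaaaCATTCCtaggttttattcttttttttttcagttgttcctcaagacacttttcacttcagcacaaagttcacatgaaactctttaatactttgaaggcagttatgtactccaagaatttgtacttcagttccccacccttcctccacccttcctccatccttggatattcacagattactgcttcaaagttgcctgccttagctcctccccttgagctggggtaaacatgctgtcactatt
Abcc5: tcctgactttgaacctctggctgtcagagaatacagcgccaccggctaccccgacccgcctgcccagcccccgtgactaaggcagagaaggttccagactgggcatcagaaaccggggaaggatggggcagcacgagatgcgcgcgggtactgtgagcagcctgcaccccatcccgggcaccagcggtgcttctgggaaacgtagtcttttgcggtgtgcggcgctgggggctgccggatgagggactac
These windows are chr5:8566841-8567090 on the plus strand and chr16:20426395-20426644 on the minus strand (RefSeq, GRCm38.p6), with matches to the 3 motifs in capitals. The Abcb1a window held 1 GGAATG, read on the opposite strand, and that of Abcc5 none of the 3 motifs. Each is the first listed window of its gene, and which annotated start is used in liver was not examined.

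Of the 5 exporters of the sinusoidal membrane tested in LAP, 3 were higher and 2 lower in tumours, beside 21.5% and 31.3% of all genes. Abcc5 (MRP5), which exports cyclic nucleotides, was at 0.666, 0.805 and 0.761 RPKM in LAP WT and at 1.46, 1.71 and 1.001 with tet-Myc. It reached 2.17, 1.89, 3.11 and 3.11 RPKM with tet-YAP, 10.5, 7.96 and 7.15 with tet-Myc/YAP and 4.24 to 11.1 (median 8.86) in tumours. No group overlapped with WT, and the called log2 differences were 1.28 ± 0.25 for tet-YAP (adjusted p = 0.0015), 2.85 ± 0.27 for tet-Myc/YAP (adjusted p = 1.7e-07) and 2.74 ± 0.22 for tumours (adjusted p = 8.4e-09). At 2 days Abcc5 was not called, and its levels were between 0.597 and 1.36 RPKM in every R26 library.

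Abcc4 (MRP4), an efflux pump for bile acids and cyclic nucleotides, was called higher in the tumours and not in tet-YAP or tet-Myc/YAP. It was at 0.423, 0.379 and 0.419 RPKM in LAP WT, 0.872 to 1.22 with tet-YAP and 0.519 to 0.805 with tet-Myc/YAP. Nodules 1 to 8 had 10.3, 4.07, 1.80, 1.85, 1.10, 8.36, 2.51 and 6.53 RPKM, all above WT and tet-Myc/YAP. The difference from WT was 2.18 ± 0.42 (adjusted p = 0.00017) and from tet-Myc/YAP 1.84 ± 0.42 (adjusted p = 0.0024). Against tet-YAP it was 1.43 ± 0.38 (adjusted p = 0.0066), with nodule 5 inside the tet-YAP range. That call was lost with sex pattern as a covariate (1.37, adjusted p = 0.053).

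Abcc1 (MRP1), which exports glutathione conjugates, was low throughout. It was at 0.238 to 0.288 RPKM in LAP WT, 1.07 to 1.504 with tet-YAP and 0.246 to 3.23 in tumours, of which nodule 4 lay inside the WT range. Its calls were 1.20 for tet-YAP (adjusted p = 0.019) and 0.85 for tumours (adjusted p = 0.028). The first was lost without WT 1 or 2, or without tet-YAP 4 (adjusted p of 0.051 to 0.071). The second was lost without WT 1, 2 or 3 (adjusted p of 0.062 to 0.082), after quantile normalization (adjusted p = 0.52) and among female-pattern libraries (adjusted p = 0.17). Slco3a1, a widely expressed OATP, was at 0.487 to 0.629 RPKM in LAP WT and at 0.345 to 0.847 in the other LAP livers that were not tumours. In the nodules it was at 1.27 to 4.48 RPKM, above all of these, a log2 difference of 1.53 ± 0.24 from WT (adjusted p = 2.3e-05) and 1.38 ± 0.22 from tet-YAP (adjusted p = 9.2e-05). Slco1a6, another OATP, was called higher with LAP tet-Myc/YAP at 1.08, 1.05 and 0.856 RPKM against 0.119 to 0.175 in WT (1.19 ± 0.42, adjusted p = 0.031), a call lost without tet-Myc/YAP 1 or 2, or without WT 1, 2 or 3 (adjusted p of 0.059 to 0.078) and after either rescaling or quantile normalization (adjusted p of 0.050 and 0.19).

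**Figure D4:**
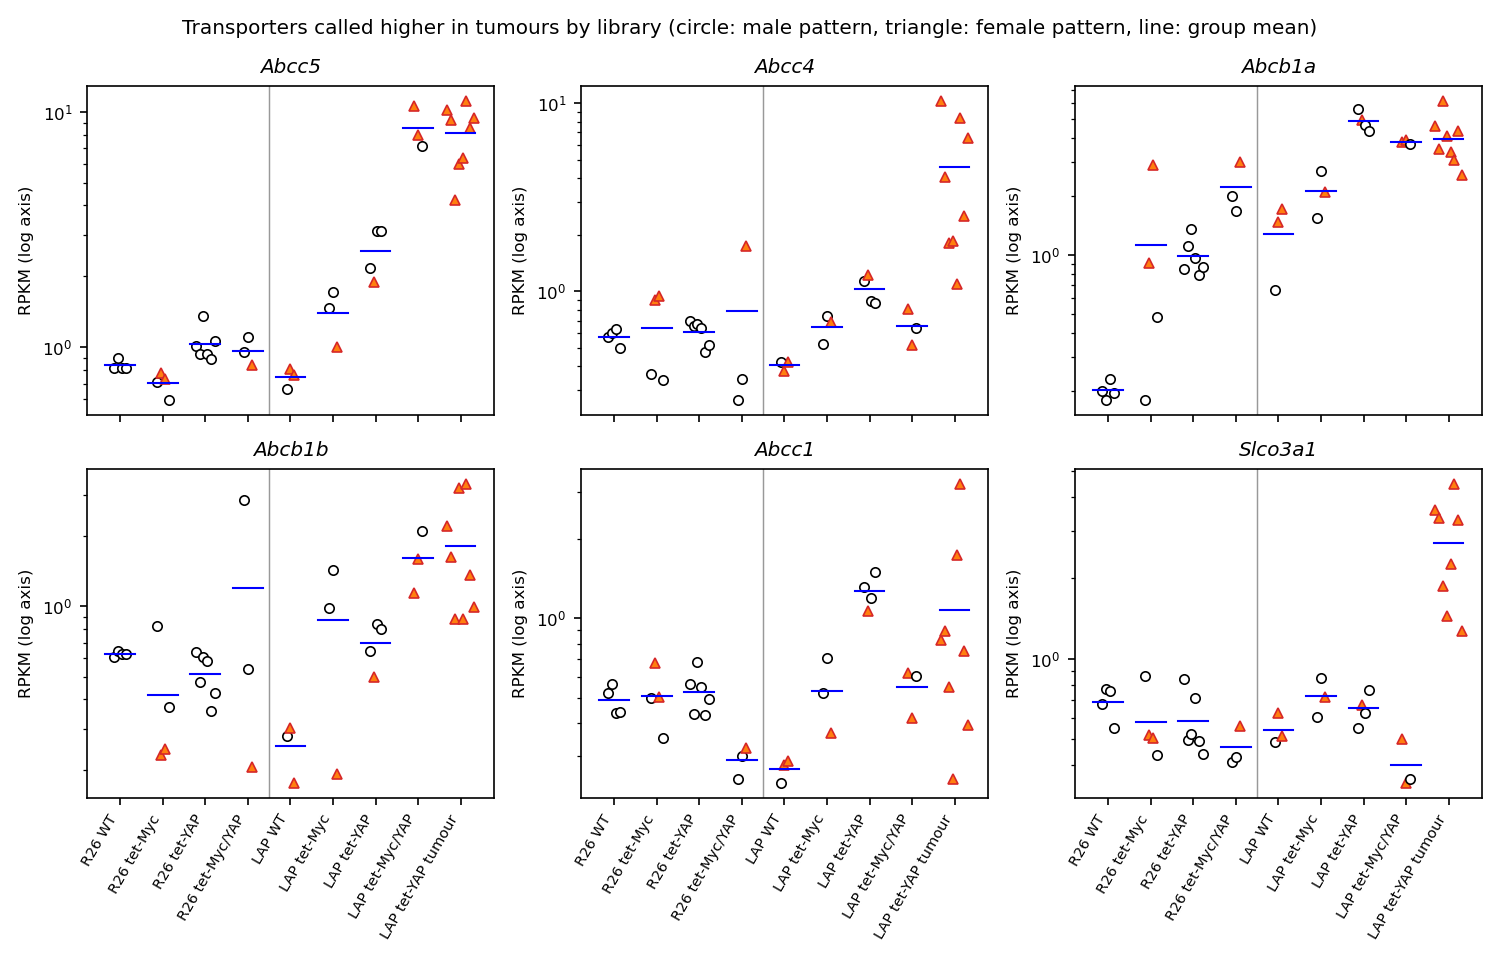
RPKM on a log axis for the 6 transporters called higher in tumours than in LAP WT, in all 38 libraries by group; circles are libraries with a male pattern, triangles those with a female pattern and lines group means. Abcc5 goes from 0.666 to 0.805 RPKM in WT to 4.24 to 11.1 in tumours, and Abcc4 spreads from 1.10 to 10.3 across the nodules.

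Abcc3 and Abcc6 were lower. Abcc3 (MRP3), which returns bile acids and glucuronides to the blood, was at 25.7, 23.4 and 19.1 RPKM in LAP WT, 14 to 19.9 with tet-YAP, 13.1, 10.3 and 15.6 with tet-Myc/YAP and 8.88 to 14.99 in tumours. The latter groups were called lower at −0.79 (adjusted p = 0.0035) and −0.90 (adjusted p = 0.00010), but after quantile normalization these differences were −0.48 (adjusted p = 0.043) and −0.16 (adjusted p = 0.38) and not called. Abcc6 (MRP6), needed for release of ATP by hepatocytes, was at 19.7, 17.7 and 14.4 RPKM in LAP WT and at 11.1, 10.2 and 13.03 with tet-Myc, which was not called. It was at 10.3, 11.6, 9.09 and 7.70 with tet-YAP, 4.75, 4.95 and 6.64 with tet-Myc/YAP and 2.95 to 6.52 in tumours, all below WT. Log2 differences were −0.81 ± 0.22, −1.58 ± 0.24 and −1.71 ± 0.20, with adjusted p of 0.011, 3.7e-05 and 5.7e-07. The tet-YAP call was lost without WT library 1 (adjusted p = 0.065). In R26 tet-YAP Abcc6 was at 7.82 to 9.69 RPKM against 10.6 to 14.8 in WT, not called at −0.49 (adjusted p = 0.012).

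All 4 tested ABC transporters of intracellular membranes were lower in tumours (median −0.98), where 31.3% of all genes were called lower and their median was −0.14. Abcb6, a porphyrin transporter, was at 20.3, 15 and 12.5 RPKM in LAP WT, 6.75 to 10.99 with tet-YAP, 6.18 to 8.98 with tet-Myc/YAP and 3.95 to 5.25 in tumours, below all other LAP livers (−1.62 ± 0.15, adjusted p = 3.7e-08). In R26 livers it was at 14.3 to 15.4 RPKM in WT and 8.33 to 8.83 with tet-Myc/YAP. Its difference there was −0.76 ± 0.09 (adjusted p = 4.2e-06), or −0.36 beyond the shift of all genes, and it was not called after rescaling (−0.37, adjusted p = 0.00067). Abcb10, a mitochondrial carrier linked to haem synthesis, was called lower in all 5 groups with YAP. It was at 8.31 to 9.80 RPKM in R26 WT, 4.91 to 6.27 with tet-YAP (−0.59 ± 0.13, adjusted p = 0.0049, and 0.17 with pairs averaged) and 4.19, 3.26 and 4.17 with tet-Myc/YAP (−1.12 ± 0.15, adjusted p = 1.1e-05). In LAP WT library 1 stood at 12.2 RPKM beside 6.48 and 6.68, the tet-YAP livers were at 4.07 to 5.42, tet-Myc/YAP at 4.55 to 5.83 and tumours at 2.14 to 4.51. Without that library the calls for YAP with and without Myc were lost, with adjusted p of 0.30 and 0.14. The tet-Myc/YAP call for Abcb10 was lost without tet-Myc/YAP 1, 2 or 3, or without WT 1 (adjusted p of 0.058 to 0.30).

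Abcb8, a mitochondrial transporter, had an interaction term of 1.14 ± 0.32 in LAP (adjusted p = 0.027), lost without tet-Myc/YAP 1, or without WT 1 or 2, or without tet-Myc 3, or without tet-YAP 3 or 4 (adjusted p of 0.053 to 0.097). It was at 6.83 to 10.6 RPKM in WT, 4.04 to 6.21 with tet-YAP, called lower, and 11.5, 7.79 and 9.06 with tet-Myc/YAP. The tet-YAP call was lost without WT library 1 (adjusted p = 0.091).

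Cation and carnitine transporters had calls in both directions. Slc22a5 (OCTN2, the carnitine transporter) was at 5.65 to 6.72 RPKM in R26 WT and at 10.7 to 13.3 in the 6 tet-YAP libraries, without overlap (0.88 ± 0.14, adjusted p = 0.00073, and 0.12 with pairs averaged). With R26 tet-Myc/YAP it was at 9.60, 9.43 and 8.11 RPKM, not called at 0.48 but called at 0.86 after rescaling by median ratios (adjusted p = 0.00082). In LAP livers it was at 7.05 to 9.11 RPKM in WT and 5.71 to 8.68 with tet-YAP. It was called lower with tet-Myc/YAP, at 4.43 to 6.03 RPKM (−0.57 ± 0.19, adjusted p = 0.020), and in tumours, at 3.03 to 4.80 (−0.94 ± 0.16, adjusted p = 4.0e-05). The tet-Myc/YAP call was lost without tet-Myc/YAP 1 or 2, or without WT 2 (adjusted p of 0.059 to 0.097).

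Slc22a4 (OCTN1, an ergothioneine carrier) was at 1.81, 0.959 and 1.73 RPKM in LAP WT, 3.73, 3.98, 5.13 and 4.33 with tet-YAP and 0.0874 to 1.52 in tumours. It was higher with tet-YAP by 1.28 ± 0.32 (adjusted p = 0.0066) and lower in tumours at −1.06 (adjusted p = 0.0030), and the difference between tumours and tet-YAP was −2.34 ± 0.26 (adjusted p = 1.6e-06). The tumour call was lost among female-pattern libraries (adjusted p = 0.067). Slc22a15 had an interaction term of −0.74 ± 0.22 in LAP (adjusted p = 0.033), lost without tet-Myc/YAP 1 or 2, or without WT 1 or 2, or without tet-Myc 1 or 2, or without tet-YAP 2, 3 or 4 (adjusted p of 0.054 to 0.091). It was at 1.12, 1.12 and 1.12 RPKM in LAP WT, 0.301 to 0.566 with tet-Myc/YAP and 0.989 to 1.62 in tumours. Slc22a3 (OCT3) was called lower with LAP tet-Myc/YAP, at 0.0937 to 0.324 RPKM against 0.736 to 1.38, but its exons overlap on the opposite strand with Plg, the gene of plasminogen, which hepatocytes make, and its values are therefore uncertain. Slc22a23, an orphan member of the family, was at 15.9, 15.1 and 14.1 RPKM in LAP WT, 9.67 to 11.1 with tet-YAP, 6.35 to 7.42 with tet-Myc/YAP and 5.21 to 11.7 in tumours, and all 3 groups were called lower (−0.52 ± 0.18, −1.10 ± 0.20 and −0.85 ± 0.16, adjusted p of 0.038, 0.00021 and 0.00016). The tet-YAP call for Slc22a23 was lost without WT 1, 2 or 3, or without tet-YAP 2, 3 or 4 (adjusted p of 0.050 to 0.13), and the tumour call after quantile normalization (adjusted p = 0.15). Abcc9, the regulatory subunit of vascular potassium channels, was called lower in R26 tet-Myc/YAP at 2.20, 2.23 and 3.13 RPKM against 4.53 to 5.27 (−0.84 ± 0.12, adjusted p = 2.3e-05). After rescaling this was −0.49 (adjusted p = 0.0015) and not called. Its interaction term of −0.56 ± 0.16 (adjusted p = 0.012) was lost with pairs averaged (adjusted p = 0.14), after rescaling (adjusted p = 0.090), after quantile normalization (adjusted p = 0.071) and, at −0.49 and −0.50, without tet-Myc/YAP 1 or 2 (adjusted p of 0.040 to 0.043).

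Several genes of a run of Slc22a genes, Slc22a26 to Slc22a30, followed the sex pattern of the libraries. Slc22a26 was at 23.7 to 30.1 RPKM in the 3 female-pattern R26 libraries and at 0 to 1.14 in the 14 male-pattern ones. Slc22a27 had 9.87 to 12.2 RPKM in the former and 0.0144 to 2.57 in the latter. Slc22a28 went the other way, at 1.27 to 2.09 in female-pattern and 1.98 to 6.50 in male-pattern libraries. In the LAP livers that were not tumours Slc22a28 did not overlap between the patterns, at 0.794 to 1.85 RPKM in 6 female and 2.12 to 5.13 in 7 male libraries. Differences between groups of unequal pattern are therefore given for these genes also with sex pattern as a covariate or within 1 pattern.

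With R26 tet-Myc/YAP, whose library 3 was of the female pattern, the calls were higher for Slc22a26 (2.88 ± 1.20, adjusted p = 0.045), Slc22a27 (2.85 ± 0.84, adjusted p = 0.0074) and Slc22a29 (1.97 ± 0.38, adjusted p = 0.00033). The first was lost without tet-Myc/YAP 3, or without WT 1, 2, 3 or 4 (adjusted p of 0.068 to 0.28), and Slc22a26 and Slc22a27 were lost with pairs averaged. With sex pattern as a covariate the differences were smaller and called for each gene, at 1.24 for Slc22a26 (adjusted p = 0.00015), 1.77 for Slc22a27 (adjusted p = 0.00019) and 1.51 for Slc22a29 (adjusted p = 9.4e-06). Both male-pattern tet-Myc/YAP libraries, a close pair, had 1.14 and 1.10 RPKM of Slc22a26, 2.47 and 2.57 of Slc22a27 and 1.38 and 1.21 of Slc22a29. Male-pattern R26 livers of the other groups reached 0.244, 0.202 and 0.114 RPKM. Slc22a28 was lower in R26 tet-YAP, where all libraries were male, at 2.30 to 3.33 RPKM against 5.14 to 6.01 in WT (−0.92 ± 0.23, adjusted p = 0.012, and 0.25 with pairs averaged). Slc22a30 was at 15.1 to 17.9 RPKM in R26 WT and at 9.89 to 12.6 with tet-YAP (−0.54 ± 0.10, adjusted p = 0.0021, and 0.13 with pairs averaged). The Slc22a30 difference was too small to be called after rescaling (−0.44), after quantile normalization (−0.33) and without WT library 4 (−0.49), which stood highest of the WT libraries.

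Within the female pattern the LAP WT livers had 22.6 and 19.8 RPKM of Slc22a26, the tet-Myc/YAP livers 1.35 and 1.12 and the tumours 0.132 to 7.08, both below WT. Fitted on female-pattern libraries alone, the difference for Slc22a26 was −3.64 for tet-Myc/YAP (adjusted p = 0.011) and −3.41 in tumours (adjusted p = 0.0019), whereas over all LAP libraries neither was called. Over all LAP libraries tumours were called lower for Slc22a27 (−1.99 ± 0.71, adjusted p = 0.020), Slc22a28 (−1.71 ± 0.44, adjusted p = 0.0023) and Slc22a30 (−1.85 ± 0.61, adjusted p = 0.013). The call for Slc22a27 was lost without WT 2 or 3 (adjusted p of 0.13 to 0.16), and that for Slc22a30 without WT 1 (adjusted p = 0.071) and among female-pattern libraries (adjusted p = 0.15). These genes are similar in sequence, and reads shared among them could have been assigned to any one of them.

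**Figure D5:**
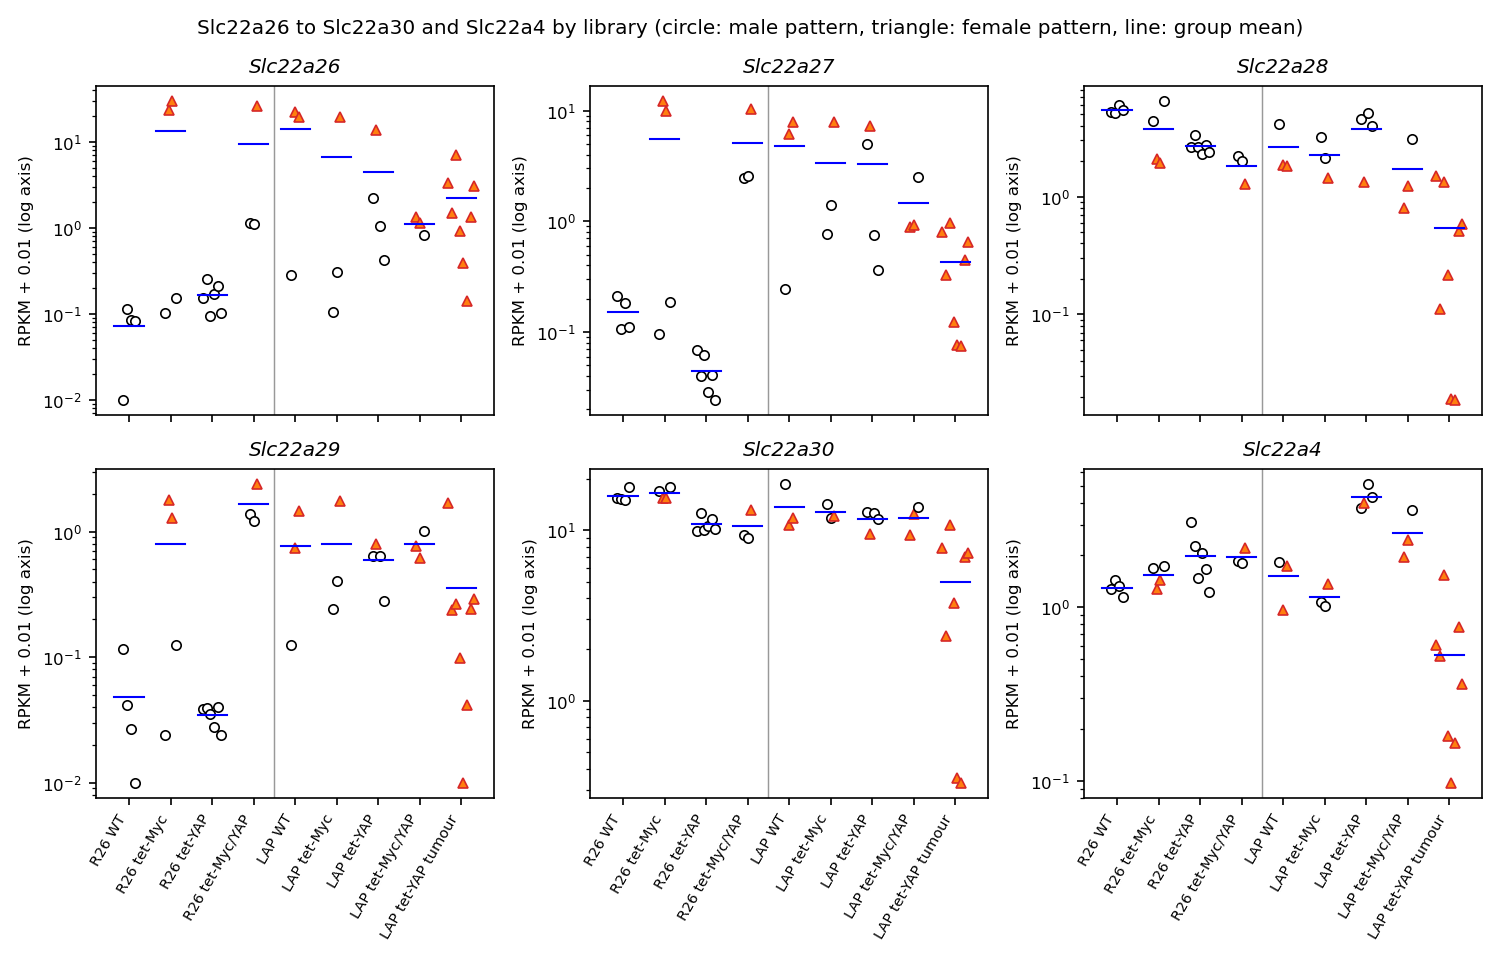
RPKM + 0.01 on a log axis for Slc22a26 to Slc22a30 and for Slc22a4 in all 38 libraries by group; circles are libraries with a male pattern, triangles those with a female pattern and lines group means. Female-pattern R26 libraries stand at 23.7 to 30.1 RPKM for Slc22a26 against at most 1.14 in male-pattern ones, and tumours 5 and 6 are lowest for Slc22a28 and Slc22a30.

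The 8 nodules were spread widely. Of the 23 transporters lower in tumours, nodule 6 had the lowest value for 11, nodule 5 for 5 and nodule 8 for 5, while nodule 3 had the highest value for 12. Slc22a30 was at 0.341 and 0.320 RPKM in nodules 5 and 6 and at 2.39 to 10.7 in the others. Slc22a18, a transporter encoded in an imprinted region, was at 0.210 and 2.61 RPKM in the same nodules against 3.79 to 8.40. Nodules 5 and 6 were also the deepest of the nodules, with the lowest limits of the RPKM scale (28.8 and 28.7 RPKM, against 29.8 to 38.6 in the others). Their sums of the hepatocyte markers listed below were the lowest too, at 84.3 and 81.7 RPKM against 120.7 to 149.3 in the others. The part of either in these levels was not tested. Some members below the filter were highest in nodule 5. Abcc8, a sulphonylurea receptor subunit of pancreatic beta cells, was at 1.19 RPKM in nodule 5, 0.00380 to 0.244 in 6 others and 0 in nodule 8, so that 7 of the 8 nodules were above 0. In the other LAP livers it was at 0 except in tet-Myc/YAP library 2, at 0.00860 RPKM. Slc22a8 (OAT3, a kidney carrier) was at 0.8288 and 0.485 RPKM in nodules 5 and 4 and at most 0.167 in the other LAP libraries.

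Markers of cell types moved with the groups. The 6 hepatocyte markers (Alb, Apoa1, Ttr, Tat, Hnf4a and Cps1) stood at 58.6% to 107% of their library's RPKM limit in LAP WT. Their sums of 215 to 303 RPKM in WT, 149 to 203 with tet-YAP, 150 to 181 with tet-Myc/YAP and 81.7 to 149 in tumours are therefore bounded by that limit, as are their 6 lower calls in tumours, and are no measure of hepatocyte content. Of the 6, Cps1 and Tat reached furthest below the limit in tumours, down to 6.19% and 13.7% of it. Markers of cholangiocytes and progenitors summed to 8.62 to 11.9 RPKM in WT, 20.02 to 29.1 with tet-YAP, 37.1 to 64.4 with tet-Myc/YAP and 41.6 to 82.7 in tumours, where all 6 tested of 8 were higher. Endothelial markers went from 51.7 to 64.7 RPKM in WT to 14.3 to 41.95 in tumours (3 of 7 lower), macrophage markers from 42.1 to 74.6 to 12.9 to 37.7 (3 of 5 tested lower, 1 higher) and markers of stellate cells and fibroblasts from 35.02 to 48.2 to 12.8 to 42.5 (4 of 7 lower, 1 higher). In LAP tet-YAP the macrophage markers were higher than in WT without overlap, at 82.7 to 111 RPKM, with Cd68 and Marco called higher of 5 tested. None of these 5 lists had a marker at 0 throughout a LAP group. Lymphocyte markers were not tested and summed to 0.384 to 1.63 RPKM in tumours and 0.750 to 1.11 in WT. Of 4 kidney tubule markers, which summed to 0.0393 to 0.0837 RPKM in WT and 2.95 to 12.2 in tumours, Lrp2 alone was tested and was higher in tumours by 4.00 (adjusted p = 4.5e-09). In R26 tet-Myc/YAP the lower calls were 4 of 6 for hepatocytes, 1 of 3 tested for cholangiocytes, 4 of 7 for endothelium, 4 of 5 for macrophages and 4 of 7 for stellate cells and fibroblasts, with no higher ones, beside 37.6% of all genes called lower there. In bulk liver, fewer cells of a type and less RNA per cell cannot be told apart, and the part of these changes in the transporter results was not tested.

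The wider transport pathway was described by counts. Of 22 other hepatobiliary transporters 18 were tested in LAP, of which 2 were higher and 11 lower in tumours (median −1.17), 2 and 6 with tet-Myc/YAP, and 1 and 3 with tet-YAP. Slc10a1 (NTCP, the sodium-dependent bile acid carrier) had a log2 difference of −2.78 in tumours (adjusted p = 4.6e-07) and of −2.09 with tet-Myc/YAP (adjusted p = 0.00024). Mfsd2a (a carrier of lysolipids) had a log2 difference of −4.22 in tumours (adjusted p = 3.3e-06), Slc47a1 (MATE1, a cation exporter) of −3.36 (adjusted p = 2.9e-06) and Abcg8 (a sterol exporter) of −2.75 (adjusted p = 0.00026). In R26 17 of the list were tested, with 3 higher and 9 lower in tet-Myc/YAP, 3 and 1 in tet-YAP and 1 and 0 in tet-Myc. Of 14 nuclear receptors and regulators known to control transporter genes, all tested, 12 were lower in tumours, 7 with LAP tet-YAP and 7 with LAP tet-Myc/YAP, where Nfe2l2 (NRF2) was higher. In R26, 8 were lower with tet-Myc/YAP, 1 with tet-YAP and 0 with tet-Myc. The shares of all genes called lower were 31.3% in tumours, 15.3% and 14% in LAP livers with YAP alone and with both factors, and 37.6% in R26 tet-Myc/YAP, where the median of all genes was −0.39. In tumours Nr0b2 (SHP) had a log2 difference of −3.25 (adjusted p = 2.7e-07), Nr1i3 (CAR) of −3.14 (adjusted p = 2.0e-05), Nr1h4 (FXR) of −1.90 (adjusted p = 0.00039) and Hnf4a, a hepatocyte marker within the compressed range of the scale, of −0.91 (adjusted p = 9.5e-06). Neither list had a call with LAP tet-Myc.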

How the data were processed

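Total RNA of mouse liver was sequenced after TruSeq preparation without the poly-T bead step. TopHat2 (2.0.8), featureCounts (1.4.5-p1), SAMtools, DESeq2 and build mm9 appear in the submitters' processing notes. The deposited tables hold RPKM per gene, made by the authors in a separate table for each system. A further deposited table, of the authors' own comparisons, was not used. Columns were assigned to groups by name, and 27 rows with dates in place of symbols were left out.

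One model per system, over all its libraries, was fitted with limma 3.58.1 (R 4.3.3, lmFit and eBayes with trend) on log2(RPKM + 0.5), two-sided. Genes reaching 1 RPKM in 3 or more libraries entered (11263 in R26, 12591 in LAP), with Benjamini-Hochberg adjustment over all of them. The added 0.5 makes fold changes of low genes too small. Errors of log2 differences are standard errors. No test crossed the systems. The fit was tested on simulated data.

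Alternatives were pseudocounts of 0.1 and 1, no filter, a filter of 3 RPKM, rescaling by median ratios, quantile normalization, fits of the compared groups alone, sex pattern as a covariate, averaging of close R26 pairs and leaving out each library. Fits of one sex pattern alone, and of R26 tet-Myc/YAP without libraries 1 and 2, were chosen after seeing the data. Close pairs had a variance under 1.5 times that of counting over genes with 40 to 400 reads. Values are given per library or as ranges, though not for every group of both systems. They cover up to 5 transporters with the largest called difference in each direction of each comparison with WT, and of tumours with tet-YAP, that reached 1 RPKM in the higher group. They also cover 14 main hepatocyte transporters. Other members were named after their values were seen. The gene families, marker lists and other lists were chosen with earlier results of these data known. Promoter windows come from RefSeq on GRCm38.p6 and exon overlaps from GENCODE vM21. Values of 2 members are not reported here singly, though they stay in the counts and medians.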

Additional observations from a re-analysis of the deposited data

Results flagged for a closer look

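Single libraries stood apart from the rest of their group in 10 of 130 groups of 4 to 8 values examined by Dixon's test, which flags about 1 group in 20 by chance. In the tumours these were Slc22a26 (7.08 RPKM, next 3.30), Slc22a4 (1.52, next 0.759), Slc22a7 (0.723, next 0.154) and Slco1a4 (12.1, next 5.82), each highest in nodule 3, Slc22a29 in nodule 1 (1.67, next 0.280) and Slco1a1 in nodule 8 (3.44, next 1.24). LAP tet-YAP library 2, the only one of its group with a female pattern, had 14.0 RPKM of Slc22a26 (next 2.23). In R26 livers, Abcc5 in tet-YAP library 3 (1.36 RPKM, next 1.06), Abcc5 in WT library 2 (0.902, next 0.819) and Slc22a30 in WT library 4 (17.9, next 15.5) were flagged with small absolute gaps.

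The joint effect of Myc and YAP differed from the sum of the single effects for 6 transporter terms, by the interaction term of the model. In R26 these were Abcc9 (−0.56) and Slco2b1 (−0.71), and in LAP Abcb8 (1.14), Slc22a15 (−0.74), Slc22a7 (−2.52) and Slco2b1 (−1.88). Among all genes 25.6% had a called interaction in R26 and 15.7% in LAP.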

How the results depend on the processing

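No paired analysis was possible because the LAP columns carry no numbers and those of the R26 columns, absent from the first column of each group, could not be matched to the labels' replicates. The 8 transporter calls of R26 tet-YAP became 5 with median-ratio rescaling, 4 with quantile normalization and 0 with close pairs averaged. The 16 of R26 tet-Myc/YAP became 9 with quantile normalization, where Slco1b2 changed sign to 0.0225, and 12, of which 11 were the same genes, without libraries 1 and 2. The 0 calls of R26 tet-Myc became 1 (Slco2a1) among male-pattern libraries. The 2 interaction calls in R26 became 1 with a pseudocount of 1, 0 with median-ratio rescaling or close pairs averaged and 4 with sex pattern as a covariate, and quantile normalization gave 2 other genes. In LAP, female-pattern libraries alone gave 0 calls in tet-YAP (11), 7 in tumours against tet-YAP (21), 8 in tumours against tet-Myc/YAP (16) and 1 interaction (4). Fits of the compared groups alone gave 17 in tet-YAP and 7 interactions, and sex pattern as a covariate gave 2 interactions.

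Leaving out single libraries gave 0 to 5 calls in R26 tet-Myc, 6 to 9 in R26 tet-YAP, 14 to 16 with both factors in R26 and 0 to 5 interactions there. In LAP it gave 0 to 0 in tet-Myc, 5 to 12 in tet-YAP, 15 to 17 in tet-Myc/YAP, 26 to 30 in tumours against WT, 16 to 21 against tet-YAP, 11 to 16 against tet-Myc/YAP and 1 to 6 interactions. The causes of these shifts were not tested. Depth limits the transporters under 0.1 RPKM, which stood for a few reads per kilobase.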
